A study of Homo sapiens with 4 samples.

Results

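The library of MCF10A cells carrying miR-105 was set directly against the library of MCF10A cells labelled as carrying MYC, gene by gene. These are 2 of the 4 libraries of the series, 1 per construct, and the other 2, from cells carrying the empty pBabe vector or pBabe with GFP, serve here as reference levels. MCF10A is an immortalised, non-tumorigenic human mammary epithelial line. All 4 populations carried their pBabe retroviral construct stably and grew in the same DMEM/F12 medium, which held hydrocortisone, insulin, EGF, cholera toxin and horse serum, so every level below was read in the presence of these growth factors and of the steroid. The labels do not say whether a population was 1 clone or a pool. With 1 library per construct, no difference below has a replicate check, the counts rest on a fold rule and not on a test, and each statement compares these libraries and not the conditions. Of 18840 genes in the table, 12484 had a mean of at least 1 CPM (a read count scaled to depth) over the 4 libraries and were compared.

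Read totals ranged from 6859698 with miR-105 to 14025115 with GFP, with 9795159 in the MYC-labelled library, so 1 read was worth 0.157 CPM with miR-105 and 0.0948 CPM in the MYC-labelled library. Levels are in CPM, and log2 differences are miR-105 minus MYC-labelled on log2(CPM + 0.5), which understates differences of low genes. A fold given for 1 gene divides its CPM values without that addition, and the range in parentheses is an exact 95% interval that covers counting error only. For a library with 0 reads, 3 reads stood in as a floor, and such a fold is a lower bound.

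MYC is a transcription factor that pairs with MAX on E-box DNA and activates genes of growth, ribosome production and nucleotide supply. MXI1 and the other MXD proteins compete for MAX and oppose it. A microRNA pairs through bases 2 to 8 of its mature strand, the seed, with matching sites in the 3' untranslated region (3' UTR) of mRNAs and lowers their level or translation. MiR-105 has been reported to act on MXI1 and on TJP1, the tight junction scaffold ZO-1. The direct comparison addresses how far the transcriptome of cells with miR-105 is that of cells with MYC.

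The mature strands of miR-105 show the word that a seed match pairs with, given here with the seed in capitals. RefSeq places the 5p strand on chromosome X at chrX:152392265-152392287 and again at chrX:152394458-152394480, both on the minus strand of GRCh38.p14. The reverse complement of its seed, read as DNA, is GCATTTG, and GCATTTGA where an A follows.
hsa-miR-105-5p: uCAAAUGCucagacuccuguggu
hsa-miR-105-3p: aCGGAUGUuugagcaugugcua

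Both reported targets held that word in their 3' UTR. The following stretches of 30 bases come from the GENCODE 29 annotation of GRCh38, 5′ to 3′ on the mRNA strand, with the seed match in capitals. For MXI1 they lie at chr10:110285999-110286028 and chr10:110287174-110287203 on the plus strand, and for TJP1 the pair with the longer match lies at chr15:29701251-29701280 and chr15:29700667-29700696 on the minus strand.
MXI1, first site: tctattttgatgcaGCATTTGAtaatgata
MXI1, second site: ttatgggctggaaaGCATTTGttataaacc
TJP1, first longer site: cagtaaatgggggtGCATTTGAggtctgtt
TJP1, second longer site: ttctttctggctatGCATTTGAaaattttg

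MXI1 and TJP1 differed in opposite directions between the libraries. MXI1 stood at 14 CPM in the miR-105 library, 79.2 in the library labelled MYC, 81.2 with vector and 88.9 with GFP. It was therefore 5.67-fold (95% counting interval 4.55 to 7.14) higher in the MYC-labelled library, which lay at the level of both controls. TJP1 stood at 219 CPM with miR-105, 99.3 in the MYC-labelled library, 264 with vector and 388 with GFP, so that it was 2.21-fold (2.04 to 2.39) higher with miR-105. The lowest TJP1 level of the 4 libraries was that of the MYC-labelled one.

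MYC mRNA itself was higher in the miR-105 library than in the library labelled MYC. Its level was 463 CPM with miR-105, 232 in the MYC-labelled library, 207 with vector and 198 with GFP. The ratio of miR-105 to MYC-labelled was 2 (1.9 to 2.11). The transcript that the label names was therefore not higher in the MYC-labelled library than in the miR-105 library, and "MYC-labelled" is used for that library throughout. Each direction below belongs to the libraries as labelled. How much of the MYC transcript the construct carries is not given in the sources used here.

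Among 14 genes of the MYC and MAX network, 13 were compared, 1 was at least 2-fold higher with miR-105 and 4 were at least 2-fold lower. Over all genes compared, 19.0% passed this 2-fold rule upwards and 19.8% downwards. The antagonists MXI1, MXD4 and MNT were 3 of the 4 lower genes. MXD4, a MAX partner that represses MYC sites, stood at 26 CPM with miR-105 against 188 in the MYC-labelled library, 181 with vector and 182 with GFP, so that, as for MXI1, the miR-105 library was low and the other 3 were close together. MNT, the constitutive antagonist, stood at 23.4 against 49 CPM, with 53.4 and 57.1 in the controls. MLXIPL, the glucose-responsive partner of MLX, had 0 reads with miR-105 and 4.27 CPM in the MYC-labelled library. MXD3 was the 1 higher gene, at 169 CPM with miR-105, 78.7 in the MYC-labelled library, 66.6 with vector and 50.6 with GFP. MXD1, of the same family, was within 2-fold. MAX stood at 54.4 and 72.4 CPM, a ratio of 1.33 (1.17 to 1.52) in favour of the MYC-labelled library, and MYCN had no read in any library.

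Over the whole transcriptome the miR-105 and MYC-labelled libraries stood far apart. At least 2-fold differences were seen for 2371 genes higher with miR-105 and 2478 genes lower, together 38.8% of those compared. Between the controls the same rule marked 510 genes, or 4.09%, with 382 higher in GFP (3.06%) and 128 lower (1.03%). Differences of at least 10-fold were seen for 311 genes higher and 380 lower with miR-105, against 0 and 1 for GFP against vector. Within 1.5-fold of each other were 40.4% of genes for miR-105 and MYC-labelled, and 80.1% for the controls. The controls give the only view of scatter between cultures that this design has, and they are 1 pair. With library totals alone as the scale, the median over all genes moved from 0.05 to -0.15 on the log2 scale and the split became 1837 higher and 3004 lower, so that 37.9% rather than 48.9% of the marked genes were higher with miR-105. On that scale TJP1 (log2 difference 0.93), MXD3 (0.89) and TIGAR (0.99) were under 2-fold.

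**Figure D1:**
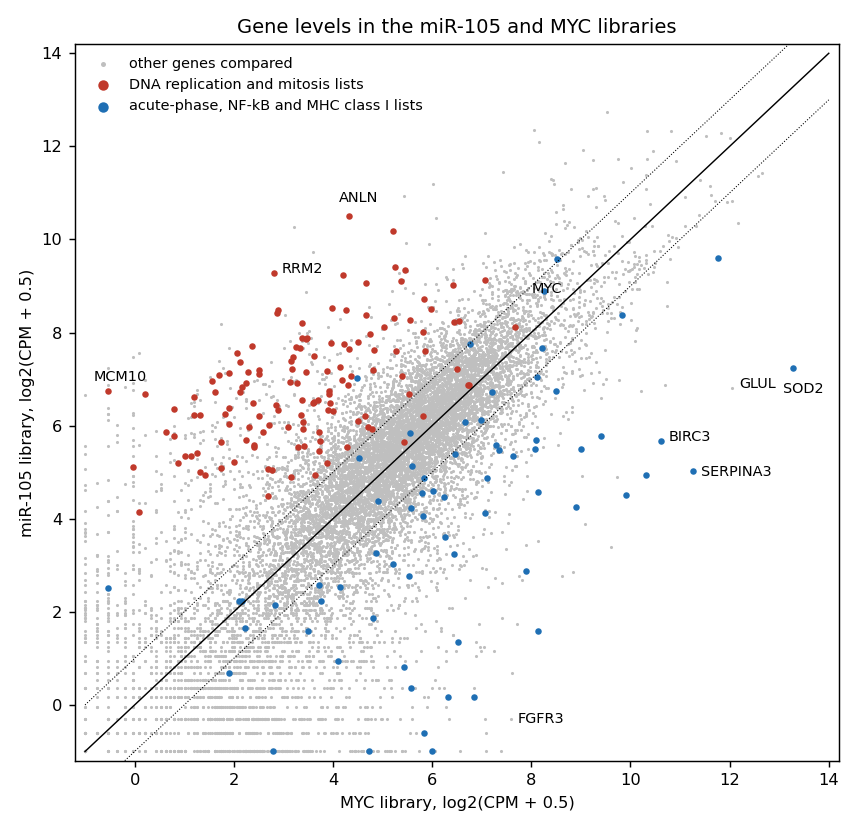
Level of each of the 12484 genes compared in the miR-105 library against the MYC-labelled library, both as log2(CPM + 0.5), 1 library each, with a solid line at equality and dotted lines at 2-fold. Red points are members of the replication and mitosis lists and blue points of the acute-phase, NF-kB and MHC class I lists. Genes at least 2-fold higher with miR-105 (2371) and lower (2478) lie outside the lines on both sides over the whole range of levels.

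The control levels show, for many marked genes but not for all, which of the 2 libraries stood apart. Of the 2371 genes higher with miR-105, 1072 (45.2%) had both controls within 2-fold of the MYC-labelled library and not of miR-105, and 496 (20.9%) had both within 2-fold of miR-105 and not of the MYC-labelled library. Among the 2478 lower genes the numbers were 1065 and 527 (21.3%). Controls lay between the 2 libraries, beyond 2-fold of either, for 206 and 383 genes. They were within 2-fold of both libraries for 224 and 189 genes, and 373 and 314 genes fell in none of these classes. In both directions the controls lay with the MYC-labelled library for more of the marked genes than with the miR-105 library.

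**Figure D2:**
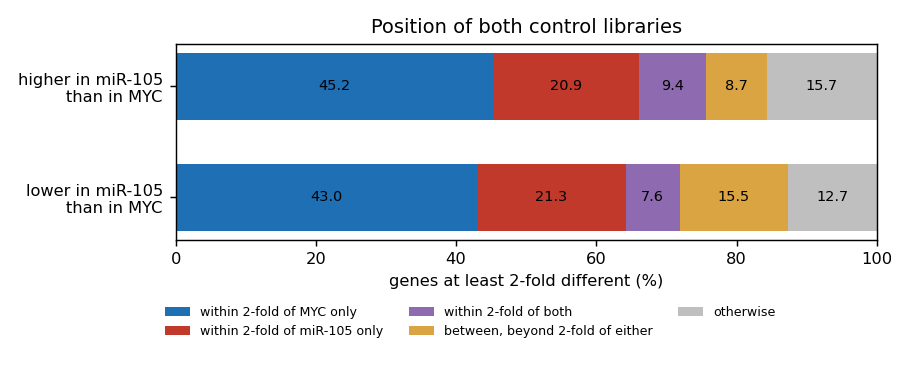
Share, in percent, of the genes at least 2-fold higher (upper bar) or lower (lower bar) in the miR-105 library than in the MYC-labelled library, by where both control libraries lay. For 1072 higher and 1065 lower genes the controls were within 2-fold of the MYC-labelled library only, against 496 and 527 within 2-fold of miR-105 only.

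Genes of DNA replication were higher with miR-105. Before S phase the origin recognition complex, CDC6 and CDT1 load the MCM helicase, which GINS and CDC45 then switch on. Of 25 such genes, all compared, 23 were at least 2-fold higher and 0 lower, with a median log2 difference of 3.23 against 0.05 for all genes. MCM10, which helps start the helicase, stood at 107 CPM with miR-105, 0.19 in the MYC-labelled library (2 reads), 0.649 with vector and 0.578 with GFP, a ratio of 566 (156 to 4681). GINS4, a subunit of the active helicase, stood at 82, 1.23, 1.84 and 1.88 CPM in the same order. CDC6 stood at 164 CPM against 3.89, with 2.59 and 2.74 in the controls. For these 3 genes the miR-105 library was high and the other 3 libraries were low. TOPBP1 (117 and 106 CPM) and ORC4 (49.6 and 42.9 CPM) were the members within 2-fold.

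The replication fork and its nucleotide supply had the same order. Of 35 genes, 33 were at least 2-fold higher with miR-105 and 0 lower, with a median of 2.53. RRM2, the regulated subunit of ribonucleotide reductase, stood at 624 CPM with miR-105, 6.54 in the MYC-labelled library, 3.03 with vector and 5.35 with GFP, 95.4-fold (75.2 to 123) apart. CLSPN, the fork checkpoint adaptor claspin, stood at 102 CPM against 0.664, with 1.95 and 2.24 in the controls. UHRF1, which carries DNA methylation through replication, stood at 343 CPM against 6.83. The lowest differences were those of RFC1 (117 and 106 CPM) and RPA1 (147 and 90.6 CPM). For 24 of the 33 marked genes both controls were within 2-fold of the MYC-labelled library and not of miR-105.

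The regulators of S phase entry were mostly higher with miR-105, with cyclin D2 as the exception. Of 24 genes, 15 were at least 2-fold higher with miR-105 and 1 was lower, with a median of 2.11. MYBL2, a transcription factor that works with the MuvB complex, stood at 293 CPM with miR-105, 2.84 in the MYC-labelled library, 3.03 with vector and 2.09 with GFP. E2F1 stood at 62.7 CPM against 1.23, with 2.81 and 2.02 in the controls, and E2F2 at 47.2 against 0.569. CCND2, cyclin D2, was the member lower with miR-105. It had 0 reads there and 35 CPM in the MYC-labelled library, at least 74.4-fold higher, with 0.324 CPM for vector and 0 for GFP, so that the MYC-labelled library stood alone. RBL2, the pocket protein p130, was 1.65-fold (1.5 to 1.82) higher in the MYC-labelled library and did not reach 2-fold.

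Mitotic genes had the largest medians of the cell cycle lists. Of 25 mitotic cyclins, kinases and their regulators, 23 were at least 2-fold higher with miR-105 and 0 lower, with a median of 4.10. All 47 genes of the kinetochore, spindle and condensin list passed the 2-fold rule upwards, with a median of 4.15. BUB1, the spindle checkpoint kinase, stood at 208 CPM with miR-105, 4.65 in the MYC-labelled library, 2.16 with vector and 2.24 with GFP. ANLN, the contractile ring protein anillin, stood at 1456 CPM against 19.4, with 24.5 and 24.3 in the controls, 74.9-fold (65.2 to 86.5) apart. KIF20A, the central spindle kinesin, stood at 356 CPM against 6.92. In each case the miR-105 library was far above the other 3. The members nearest to equal were CDC25B (279 and 204 CPM) and FZR1 (73.4 and 55.6 CPM), and for CDC25B both libraries were above the controls at 33 and 19.3 CPM. Even the smallest difference in the kinetochore list, that of the condensin II subunit NCAPD3, was 3.25-fold (2.89 to 3.65).

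The controls did not always lie with the MYC-labelled library in these lists. For 29 of the 47 kinetochore genes both controls were within 2-fold of it and not of miR-105, and for 0 genes the reverse. For the other 18 the controls fell into neither class. The median level over the 47 genes was 135 CPM with miR-105, 9.10 in the MYC-labelled library, 7.68 with vector and 5.27 with GFP. CENPH shows how: it stood at 46.9, 10.1, 3.24 and 2.6 CPM in that order, so that the MYC-labelled library lay above both controls and well below miR-105. In bulk RNA, fewer cells of a type and less RNA per cell cannot be told apart, so these values do not separate a larger share of dividing cells from more transcript in each.

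Recombination and Fanconi genes, which repair DNA in replicating cells, went with replication. Of 27 genes, 24 were at least 2-fold higher with miR-105 and 0 lower, with a median of 2.62. BLM, the Bloom helicase, stood at 56.3 CPM with miR-105, 1.8 in the MYC-labelled library, 0.541 with vector and 1.44 with GFP. FANCE, a subunit of the Fanconi core complex, was 1.23-fold (1.01 to 1.5) higher in the MYC-labelled library.

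Brakes on the cell cycle differed in both directions. Of 27 CDK inhibitors and p53 targets, 25 were compared, 7 were at least 2-fold lower (28%) and 3 higher (12%), with a median of -0.60. Over all genes compared the shares were 19.8% and 19.0%. CDKN1C, the inhibitor p57, stood at 0.784 CPM with miR-105, 63.7 in the MYC-labelled library, 13.9 with vector and 5.49 with GFP, an 81.2-fold (34.6 to 251) difference with the controls between. TP53INP1, a p53-induced regulator of death and autophagy, stood at 9.1 CPM against 68.4, with 96.1 and 158 in the controls. BBC3, the death protein PUMA, stood at 4.55 CPM against 34.7. On the other side were CDKN2C, the inhibitor p18, at 21.6 against 6.54 CPM, PLK2 at 87.7 against 18 and TIGAR at 46.3 against 19.8. CDKN2A, CDKN2B and MTAP, neighbours in the 9p21 region known to be lost in MCF10A, had 0 reads in all 4 libraries.

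The histone list went the other way from the replication lists. Replication-dependent histone mRNAs end in a stem-loop and mostly lack a poly(A) tail, so a poly(A) library samples only their polyadenylated forms. Of 27 genes, 9 were compared, 8 were at least 2-fold lower with miR-105 and 0 higher, with a median of -2.33. HIST1H2BD stood at 1.57 CPM with miR-105, 18.3 in the MYC-labelled library, 34.7 with vector and 26.7 with GFP. HIST1H2AC stood at 0.471 CPM against 13.2, with 16.6 and 17.7 in the controls. Histone genes of 1 class are near-identical, and how shared reads were assigned is not given in the sources used here.

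**Figure D3:**
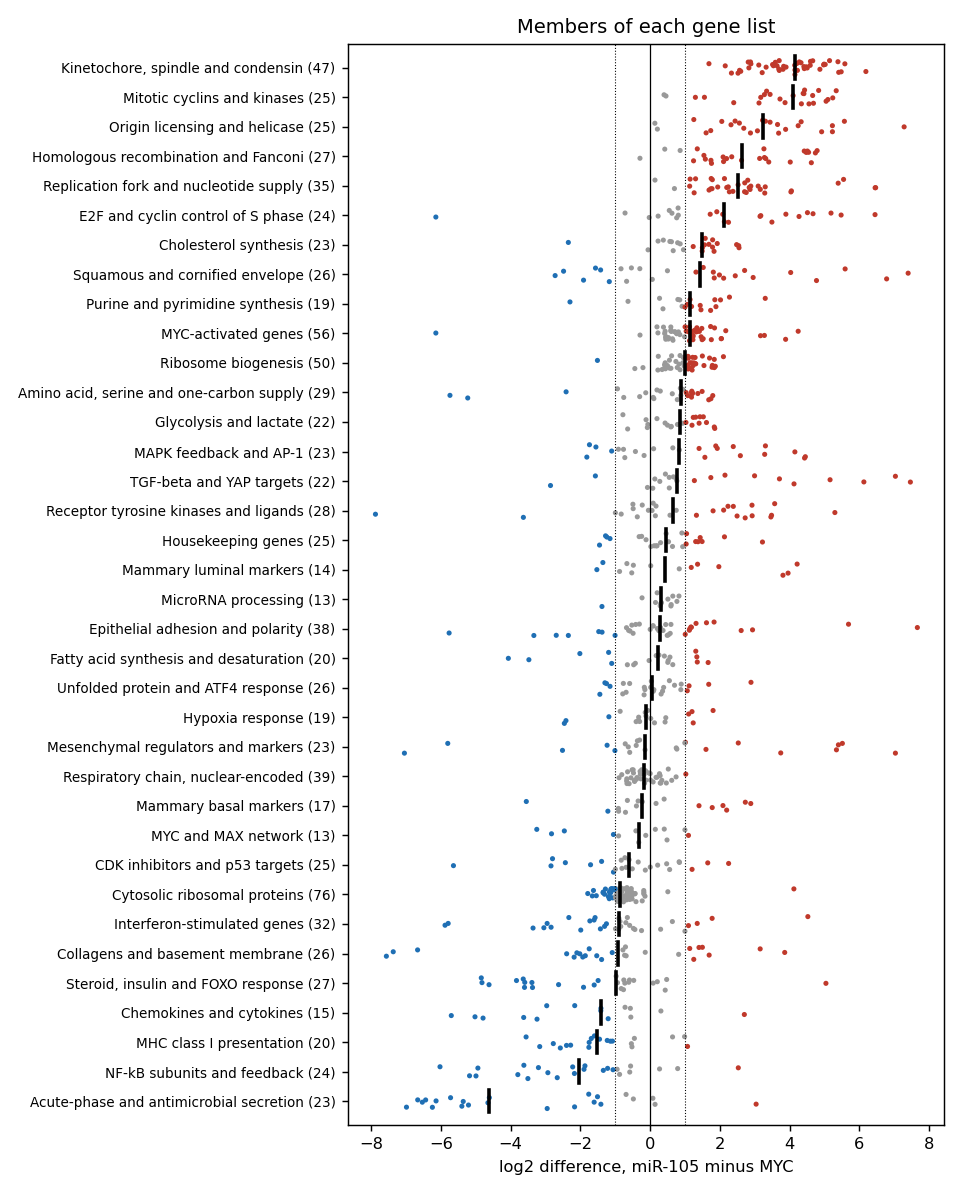
Log2 difference, miR-105 minus MYC-labelled, on log2(CPM + 0.5), for the compared members of each gene list, 1 point per gene with a bar at the list's median and dotted lines at 2-fold, 1 library each; red is at least 2-fold higher with miR-105 and blue lower. The mitotic and replication lists lie to the right of 2-fold almost whole, while the acute-phase list, with a median of -4.61, lies furthest to the left.

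MYC-activated genes were higher in the miR-105 library than in the library that carries the MYC label. Of 57 genes, 56 were compared, 32 were at least 2-fold higher with miR-105 and 1 was lower, with a median of 1.13. The list overlaps replication: its highest members were MCM5, at 168 CPM with miR-105 against 8.34, 12.3 with vector and 11.9 with GFP, and MCM4, at 651 against 43.5 CPM, 83.4 and 108. PLK4, the centriole kinase, stood at 57.7 CPM against 5.5. The lower member was CCND2, already described. NPM1, the nucleolar chaperone nucleophosmin, was close to equal at 862 and 753 CPM, above the controls at 473 and 285 CPM in both libraries. Median levels over the list were 159 CPM with miR-105, 75.2 in the MYC-labelled library, 50.6 with vector and 44.4 with GFP, so the MYC-labelled library stood above both controls and below miR-105.

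Ribosome biogenesis factors and ribosomal proteins differed in opposite directions. The first group builds the subunits in the nucleolus, and the second is part of the finished ribosome. Of 50 biogenesis genes, 25 were at least 2-fold higher with miR-105 and 1 was lower, with a median of 1.01. RRP7A stood at 134 CPM with miR-105, 30.7 in the MYC-labelled library, 60.8 with vector and 64.4 with GFP. EBNA1BP2, an rRNA processing factor, stood at 156 CPM against 43.1, with 50.6 and 44.8 in the controls. TAF1D, a subunit of the polymerase I selectivity factor, was the lower member at 41.2 CPM against 119. HEATR1 was near equal at 274 and 317 CPM, with both libraries above the controls at 97.5 and 144.

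Of 76 cytosolic ribosomal protein genes, 21 were at least 2-fold lower with miR-105 and 1 was higher, with a median of -0.85, and 74 of the 76 lay below 0. RPS28 stood at 114 CPM with miR-105, 394 in the MYC-labelled library, 215 with vector and 108 with GFP. RPS21 stood at 80.3 CPM against 249, with 171 and 106 in the controls. In both genes the MYC-labelled library was the highest of the 4. Over the list, median levels were 416 CPM with miR-105, 800 in the MYC-labelled library, 715 with vector and 388 with GFP. The controls themselves thus differed to a similar extent, with miR-105 near GFP and the MYC-labelled library near vector. The position of the controls therefore depends on which one is read. RPS26 was the exception, at 82.7 CPM with miR-105 against 4.27, 53.9 and 35. Ribosomal protein genes have many processed pseudogenes, and their reads can be split between copies. The elongation factors EEF1A1 (2737 and 6476 CPM) and EEF2 (2653 and 6093 CPM) and the translation-linked TPT1 (1819 and 4221 CPM) were also higher in the MYC-labelled library and belonged to the 8 largest CPM differences in that direction.

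Cholesterol synthesis was higher with miR-105 and of similar level in the MYC-labelled library and the controls. The pathway runs from acetyl-CoA through HMG-CoA and mevalonate and is switched on by SREBP2. Of 24 genes, 23 were compared, 13 were at least 2-fold higher and 1 was lower, with a median of 1.49. HMGCS1, HMG-CoA synthase, stood at 267 CPM with miR-105, 45.4 in the MYC-labelled library, 30.8 with vector and 38.9 with GFP. IDI1, isopentenyl diphosphate isomerase, stood at 229 CPM against 38.7, with 37.2 and 35.9. INSIG1, the sterol-sensing retention protein, stood at 228 CPM against 40.5. For 13 of the 14 marked genes both controls were within 2-fold of the MYC-labelled library and not of miR-105. TM7SF2, a sterol reductase, was the member lower with miR-105, at 2.04 against 12.4 CPM.

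Nucleotide and amino acid supply leaned the same way with marked exceptions. Of 19 genes of purine and pyrimidine synthesis, 12 were at least 2-fold higher with miR-105 and 1 was lower, with a median of 1.15. TYMS, thymidylate synthase, stood at 144 CPM against 14.1, with 10.1 and 10.2 in the controls, and CTPS1, CTP synthase, at 181 against 37. NME4, the mitochondrial nucleoside diphosphate kinase, was lower at 11.9 against 60.7 CPM. Of 29 compared genes of amino acid, serine and one-carbon supply, 12 were higher and 3 lower, with a median of 0.87. AMD1, of polyamine synthesis, stood at 305 CPM against 87.4, with 56.2 and 55.2 in the controls.

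The 3 lower members of that list are enzymes of glutamine and proline. GLUL, glutamine synthetase, stood at 112 CPM with miR-105, 4221 in the MYC-labelled library, 1524 with vector and 1776 with GFP. The difference was 37.8-fold (35.1 to 40.8), the miR-105 library was the lowest of the 4 and the MYC-labelled library the highest. PRODH, proline dehydrogenase, stood at 0.627 CPM against 59.9, with 7.78 and 2.89 in the controls. GLS2, the liver-type glutaminase, stood at 2.2 CPM against 13.8.

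Among glycolysis, fatty acid and respiratory chain genes, those of the respiratory chain differed least. Of 22 compared glycolysis and lactate genes, 10 were at least 2-fold higher with miR-105 and 0 lower, with a median of 0.86. PFKP, platelet phosphofructokinase, stood at 522 CPM against 144, with 258 and 327 in the controls, so here the MYC-labelled library was the lowest. SLC16A3, the lactate exporter MCT4, stood at 571 CPM against 159, with 460.1 and 419. Of 20 compared fatty acid genes, 4 were higher (20%) and 5 lower (25%), beside 19.0% and 19.8% of all genes compared. ACLY, ATP citrate lyase, stood at 582 against 183 CPM, whereas ACSL1, an acyl-CoA synthetase, stood at 275 against 1116 CPM. Of 39 nuclear-encoded respiratory chain genes, 1 was higher and 0 lower at 2-fold, with a median of -0.17 and a range from -0.89 to 1.02. ATP5G1, a subunit of the ATP synthase ring, was that 1 gene, at 57.4 against 28 CPM, and each of the 4 other scalings tried took it below 2-fold.

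Hypoxia and unfolded protein genes had medians near 0. Of 19 compared hypoxia genes, 4 were higher (21.1%) and 3 lower (15.8%), near the 19.0% and 19.8% of all genes compared. VEGFA, the angiogenic ligand, stood at 199.8 CPM with miR-105, 56.8 in the MYC-labelled library, 137 with vector and 222 with GFP. NDRG1, a stress-induced growth arrest gene, stood at 84.5 CPM against 453, with 265 and 259. Of 26 unfolded protein and ATF4 genes, 4 passed 2-fold upwards and 4 downwards (15.4% each). The list's median of 0.06 became -0.15 with library totals as the scale and -0.02 with TMM factors of the 2 libraries alone.

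Innate defence genes were higher in the MYC-labelled library. Epithelial cells make acute-phase and complement proteins when NF-kB and STAT3 are active. Of 32 such genes, 23 were compared, 18 were at least 2-fold lower with miR-105 and 1 was higher, with a median of -4.61. Over other settings that median ran from -4.93 to -2.17, the latter without the filter on low genes. SERPINA3, the protease inhibitor antichymotrypsin, stood at 31.8 CPM with miR-105, 2458 in the MYC-labelled library, 9.62 with vector and 11.1 with GFP, 77.2-fold (67.2 to 89.1) apart. The complement proteases C1S (0.627 against 114 CPM) and C1R (2.51 against 279 CPM) were also low in both controls, at 1.51 and 0.433 CPM for C1S and 5.73 and 2.67 CPM for C1R. CHI3L1, a secreted chitinase-like protein, had 666 reads in the MYC-labelled library and 0 in each of the other 3. SAA4, a serum amyloid A protein, had 0 reads with miR-105 and 26 CPM in the MYC-labelled library. For these genes the MYC-labelled library stood alone.

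C3 and DEFB1 had other orders. C3, the central complement protein, stood at 774 CPM with miR-105, 3479 in the MYC-labelled library, 2826 with vector and 3738 with GFP, so that the miR-105 library was the one apart. DEFB1, beta-defensin 1, was the member higher with miR-105. It stood at 5.18 CPM there, 0.19 in the MYC-labelled library, 11.4 with vector and 11.9 with GFP. Of the 19 marked members of the list, the controls were within 2-fold of miR-105 only for 7, within 2-fold of MYC-labelled only for 1, and between for 6.

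NF-kB subunits and feedback genes were lowest with miR-105 and highest in the MYC-labelled library, with the controls between for most marked members. NF-kB is held by IkB proteins and induces its own inhibitors, so the feedback genes report its activity in many cells. Of 24 genes, 17 were at least 2-fold lower with miR-105 and 1 was higher, with a median of -2.04. SOD2, the mitochondrial superoxide dismutase, stood at 151 CPM with miR-105, 9921 in the MYC-labelled library, 349 with vector and 345 with GFP, 65.5-fold (61.5 to 69.9) apart and the largest CPM difference of any gene in that direction. TNFAIP3, the feedback inhibitor A20, stood at 6.9 CPM against 236, with 21.1 and 24.1 in the controls. ICAM1, the leukocyte adhesion receptor, stood at 2.04 CPM against 91.7, with 8.97 and 4.91. In all 3 the controls lay between the 2 libraries, and they did so for 11 of the 18 marked members. IER3, an early response gene, was the higher member at 129 against 22 CPM.

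Cytokines, interferon-stimulated genes and MHC class I genes leaned the same way to a smaller extent. Of 31 chemokines and cytokines, 15 were compared, 10 were at least 2-fold lower with miR-105 and 1 was higher, with a median of -1.42. CSF1, the macrophage growth factor, stood at 5.65 CPM with miR-105, 170.1 in the MYC-labelled library, 2.16 with vector and 1.52 with GFP. TNFSF10, the death ligand TRAIL, had 0 reads with miR-105 and 25.6 CPM in the MYC-labelled library, with 3.03 and 5.85 in the controls. IL1RN, the interleukin 1 receptor antagonist, was the higher member at 8.31 against 0.853 CPM, with the controls at 10.8 and 8.74 beside miR-105.

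Of 39 interferon-stimulated genes, 32 were compared, 14 were at least 2-fold lower with miR-105 and 4 were higher, with a median of -0.90. BST2, the virion tether tetherin, stood at 0.314 CPM with miR-105, 47.6 in the MYC-labelled library, 0 with vector and 0.0722 with GFP. GBP2, a guanylate-binding GTPase, stood at 1.88 CPM against 132, but at 135 and 134 in the controls, so that BST2 set the MYC-labelled library apart and GBP2 the miR-105 library. Higher members included EPSTI1 (17.6 against 0.284 CPM), SAMD9 (143 against 41.2) and USP18 (9.72 against 3.51). The controls stood above both libraries for EPSTI1, at 51.1 and 45.8 CPM, and within 2-fold of miR-105 for SAMD9, at 118 and 237 CPM.

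Of 20 genes of MHC class I presentation, 14 were at least 2-fold lower with miR-105 and 1 was higher, with a median of -1.53. HLA-B, a class I heavy chain, stood at 23.2 CPM with miR-105, 279 in the MYC-labelled library, 50.9 with vector and 55.7 with GFP. NLRC5, the transactivator of class I genes, stood at 6.27 CPM against 46, with 1.51 and 1.16 in the controls. PSMB9, an immunoproteasome subunit, stood at 1.41 CPM against 16.7. B2M, the light chain, stood at 333 CPM against 912, with 442 and 373. CALR, the chaperone calreticulin, was the higher member at 768 against 365 CPM, but under 2-fold with library totals (log2 difference 0.86) or with TMM factors of the 2 libraries alone (0.99). Reads of the HLA heavy chain genes can be shared between them, so a single HLA gene is less certain than the list.

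**Figure D4:**
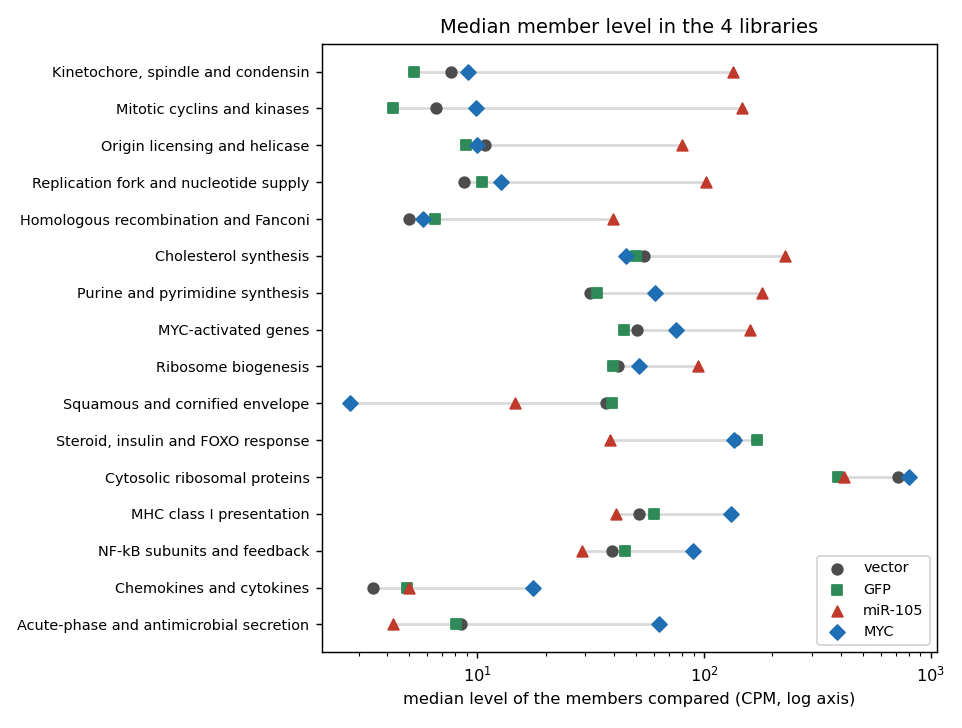
Median level of the compared members of each list in the 4 libraries, in CPM on a log axis, 1 library per construct. For mitosis, replication and cholesterol synthesis the miR-105 library lies to the right of the other 3, and for the acute-phase list the MYC-labelled library does, at 63.1 CPM against 4.23 with miR-105, 8.43 with vector and 8.02 with GFP.

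Defining epithelial markers were present in both libraries. Of the epithelial markers, EPCAM stood at 66.5 CPM with miR-105 and 55.9 in the MYC-labelled library, KRT5 at 4654 and 4138, and KRT18 at 240.4 and 135. KRT14 went the other way, at 124 CPM with miR-105 and 234 in the MYC-labelled library, with 511 and 387 in the controls, as did KRT19 at 1.73 and 3.03 CPM, with 19.8 and 7.15 in the controls. CDH1, E-cadherin, stood at 368 CPM with miR-105 and 183 in the MYC-labelled library, against 549 and 768 in the controls. Among 38 genes of epithelial adhesion and polarity, 12 were at least 2-fold higher with miR-105 (31.6%) and 7 lower (18.4%). Over all genes compared the shares were 19.0% and 19.8%. The median of the list was 0.27. GRHL2, a transcription factor of epithelial junction genes, stood at 101 CPM with miR-105, 113 with vector and 155 with GFP, and had 0 reads in the MYC-labelled library, at least 356-fold lower. CLDN4, a claudin among its known targets, stood at 168 CPM with miR-105, 2.75 in the MYC-labelled library, 276 with vector and 299 with GFP. CGN, the tight junction protein cingulin, stood at 15.7 CPM against 1.61, with 29.9 and 41.4. In these 3 genes the MYC-labelled library was the one apart, as it was for TJP1.

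Among the 7 adhesion and polarity genes lower with miR-105, some were lowest there of all 4 libraries. CLDN1, claudin 1, stood at 27 CPM with miR-105, 139 in the MYC-labelled library, 342 with vector and 472 with GFP, and ELF3, an epithelial ETS factor, at 46.3, 302, 561 and 510.1 CPM. Both were lowest with miR-105. TJP3, the scaffold ZO-3, stood at 0.784 CPM with miR-105, 69.5 in the MYC-labelled library, 25.8 with vector and 30.7 with GFP, so that ZO-1 and ZO-3 differed in opposite directions. PKP1, DSC3, CRB3 and PERP were the remaining ones, between 2.01-fold for PERP and at least 9.67-fold for PKP1.

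Mesenchymal markers differed in both directions. Of 26 genes, 23 were compared, and 10 of these lay within 2-fold. At least 2-fold higher with miR-105 were 8 (34.8%) and lower 5 (21.7%), beside 19.0% and 19.8% of all genes compared. The median was -0.15 while the mean was 0.61. The median became 0.12 without the filter on low genes and 0.75 with a mean of at least 5 CPM, so the list has no settled direction. FN1, fibronectin, stood at 1966 CPM with miR-105, 42.5 in the MYC-labelled library, 2405 with vector and 7563 with GFP. For this gene the MYC-labelled library was low and the other 3 were high. NT5E (CD73) stood at 466 CPM against 10.5, with 38.3 and 32.5, and LOXL2, a collagen cross-linker, at 160.3 against 11.5. Other members were higher in the MYC-labelled library. VIM, vimentin, stood at 128 CPM with miR-105, 731 in the MYC-labelled library, 66.2 with vector and 9.97 with GFP. SPARC and PDPN had 0 reads with miR-105 and 27.5 and 65.8 CPM in the MYC-labelled library, with at most 0.108 CPM in a control.

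Targets of TGF-beta and YAP, which induce matrix and growth factor genes, were higher with miR-105 for 10 members. Of 22 compared, these 10 were at least 2-fold higher and 2 were lower, with a median of 0.76. INHBA, the activin A subunit, stood at 189 CPM with miR-105, 0.569 in the MYC-labelled library, 37.2 with vector and 91.5 with GFP, 332-fold (152 to 906) apart. F3, tissue factor, stood at 846 CPM against 11.6, with 173 and 277. For both, the controls lay between. TGFB1, the ligand, was lower with miR-105 at 23.1 against 69.5 CPM, with 57.1 and 54.8 in the controls, as was the kinase NUAK1 at 1.41 against 13.4 CPM.

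Matrix genes were different sets in the 2 libraries. Of 26 compared collagens and basement membrane genes, 7 were higher with miR-105 (26.9%) and 13 lower (50%), with a median of -0.93. Over all genes compared the shares were 19.0% and 19.8%. FBN1, fibrillin 1, stood at 97.7 CPM with miR-105, 6.26 in the MYC-labelled library, 33.7 with vector and 60.6 with GFP. FBN2, fibrillin 2, had 0 reads with miR-105 and 94.4 CPM in the MYC-labelled library, with 0.216 and 0 in the controls, at least 201-fold higher there. The fibrillins thus went in opposite directions. FKBP10, a collagen chaperone, stood at 0.314 CPM against 134 and COL16A1 at 0.627 against 115, both also low in the controls. COL4A1 and COL4A2, which form 1 heterotrimer of basement membranes, were higher with miR-105 at 125 against 46.8 and 322 against 99.3 CPM.

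Squamous, basal and luminal lists each held genes of both directions. Of 43 squamous and cornified envelope genes, 26 were compared, with a median of 1.42. Higher with miR-105 were 14 (53.8%) and lower 6 (23.1%), beside 19.0% and 19.8% of all genes compared. A2ML1, a protease inhibitor of stratified epithelium, stood at 116 CPM with miR-105, 0.19 in the MYC-labelled library, 164 with vector and 254 with GFP. KLK5, a skin kallikrein, stood at 75.6 CPM against 0.19, with 373 and 447. PPL, the cornified envelope protein periplakin, was lower with miR-105 at 56.9 against 379.6 CPM, but the controls stood at 861 and 966, above both. KRT6A, a keratin of activated epithelium, stood at 5135 CPM with miR-105 against 1294, with 2304 and 2399 in the controls, and KRT6A can share reads with its close copies.

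Of 17 compared basal markers, 6 were higher with miR-105 (35.3%) and 2 lower (11.8%), beside 19.0% and 19.8% of all genes compared. CAV1, caveolin 1, stood at 2505 CPM against 338, with 1269.5 and 1045. TP63, the master regulator of basal cells, was higher in the MYC-labelled library, at 77.2 CPM against 6.12 with miR-105, 7.14 with vector and 14.4 with GFP. KRT17 stood at 766 against 1777 CPM and was far higher in the controls, at 6927 and 5131. Of 14 compared luminal markers, 6 were higher (42.9%) and 2 lower (14.3%). CD24 stood at 950.1 CPM with miR-105, 60.7 in the MYC-labelled library, 3086 with vector and 3652 with GFP, and ALDH1A3, a retinaldehyde dehydrogenase, at 279, 14.5, 737 and 1109 CPM. Both genes were below the controls in each library and lowest in the MYC-labelled one. ESR1, the oestrogen receptor, stood at 13.2 against 0.474 CPM.

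Growth factor receptors and ligands differed in both directions. Of 28 compared receptor tyrosine kinases and ligands, 13 were higher (46.4%) and 2 lower (7.14%), with a median of 0.66. Over all genes compared the shares were 19.0% and 19.8%. FGFBP1, which releases FGFs from matrix, stood at 139 CPM with miR-105, 3.03 in the MYC-labelled library, 20.1 with vector and 8.96 with GFP. EFNB2, ephrin B2, stood at 324 against 26.7 CPM. FGFR3, an FGF receptor, was the largest exception, with 2 reads (0.314 CPM) with miR-105, 191 CPM in the MYC-labelled library, 0.216 with vector and 0 with GFP, a ratio of 610.2 (169 to 5042). EFNA1, ephrin A1, stood at 14.4 against 185 CPM.

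The MAPK feedback and AP-1 list separated FOS family members. Of 23 compared, 11 were higher with miR-105 (47.8%) and 4 lower (17.4%), with a median of 0.84. Over all genes compared the shares were 19.0% and 19.8%. FOSL1, the FOS family member FRA1, stood at 226 CPM with miR-105, 9.86 in the MYC-labelled library, 10.9 with vector and 9.46 with GFP. PHLDA1 stood at 314 CPM against 17.2, with 23.5 and 24.3, and ETV4, an ETS factor induced by ERK, at 30.7 against 0.948. For these 3 the miR-105 library stood alone. FOS (42.2 against 149.9 CPM), FOSL2 (118 against 396), JUNB (83 against 179) and the inhibitor SPRY1 (1.41 against 5.12) were lower with miR-105. FOS was near the controls with miR-105, at 53.2 and 41.5 CPM, whereas FOSL2 was near them in the MYC-labelled library, at 317 and 569.9 CPM.

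Genes of the steroid, insulin and FOXO response were lower with miR-105, although both cultures received hydrocortisone and insulin. Of 27 compared, 13 were at least 2-fold lower and 1 was higher, with a median of -0.98. TSC22D3, the glucocorticoid-induced leucine zipper, stood at 29.2 CPM with miR-105, 852 in the MYC-labelled library, 853 with vector and 535 with GFP. PIK3IP1, an inhibitor of PI3 kinase, stood at 0.471 CPM against 27, with 23 and 30.3, and BCL6, a repressor induced by FOXO, at 11 against 282, with 232 and 219.9. In all 3 the miR-105 library was low and the other 3 were of similar size. IGFBP3, a binding protein of insulin-like growth factors, was the higher member at 72.3 against 1.71 CPM, with 58.7 and 104 in the controls.

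Genes of the microRNA machinery differed little. Of 13 compared, 0 were higher and 1 was lower at 2-fold. AGO4, an Argonaute protein, was that gene, at 16.3 CPM with miR-105, 43.3 in the MYC-labelled library, 57.9 with vector and 88.8 with GFP. XPO5, the exporter of precursor microRNAs, stood at 157 against 88.2 CPM and DICER1 at 122 against 143.

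Several genes in common use as references differed between the libraries. Of 25 housekeeping genes, 8 were at least 2-fold higher with miR-105 (32%) and 4 lower (16%), with a median of 0.46. Over all genes compared the shares were 19.0% and 19.8%. ACTB, beta-actin, stood at 6885 CPM with miR-105, 737 in the MYC-labelled library, 3426 with vector and 3182 with GFP, so that the miR-105 library was the highest and the MYC-labelled library the lowest. HPRT1 stood at 84.9 against 19 CPM, with 16.2 and 14.7. RPLP0, B2M, C1orf43 and EEF1A1 were the lower ones, between 2.22-fold for RPLP0 and 2.74-fold for B2M. GAPDH, in the glycolysis list, was nearly equal at 2498 and 2709.6 CPM, above the controls at 1582 and 999.

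Single markers of other cell types also differed. Of 11 fibroblast markers, 4 were compared. POSTN, periostin, stood at 114 CPM with miR-105, 0.379 in the MYC-labelled library, 12.9 with vector and 5.06 with GFP, FAP at 90.2 against 2.56, with 85 and 126, and DCN, decorin, at 16 against 141, with 117 and 69.4. The list's summed level was between 161 and 231 CPM in the 4 libraries, with 3 or 4 of the 11 at 0 reads in each. The immune markers summed to 43.6 CPM with miR-105 and 30.7 in the MYC-labelled library, below the controls at 98.2 and 100.1. Of 3 immune markers compared, 2 were at least 2-fold higher with miR-105 and 1 was lower. The higher ones were CSF1R (log2 difference 1.02) and CD68 (1.13), both under 2-fold with library totals as the scale. Endothelial markers summed to 3.76 and 93.8 CPM, and 88.9 of the latter was KDR, the VEGF receptor. Adipocyte markers summed to 89.7 and 10.9 CPM, with PPARG at 61.6 against 3.89 and LPL at 27.3 against 0.474. Melanocyte and neural markers summed to 20.5 and 12.7 CPM, of which MITF made up 19 and 8.25. Some listed markers were at 0 reads in both libraries, for fibroblasts (COL3A1, PDGFRA, THY1), leukocytes (PTPRC, CD3E), adipocytes (ADIPOQ, FABP4) and melanocytes (TYR, SOX10). Other members of the same lists had reads, as given above. Of 13 immune, 9 endothelial, 8 adipocyte and 11 melanocyte and neural markers, 8, 5, 3 and 6 had 0 reads with miR-105 and 7, 3, 2 and 4 in the MYC-labelled library.

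The 12 genes with the largest differences in each direction crossed these groups. Upwards with miR-105 they included MALL, GRHL2, CTSV, INHBA, A2ML1, MCM10, POSTN, GPAT2, PDE1C, FAM111B and KLK5. MALL, a raft protein of the MAL family, stood at 150.3 CPM with miR-105, 0.19 in the MYC-labelled library, 37.3 with vector and 32.9 with GFP, the largest log2 difference at 7.77. CTSV, cathepsin V, stood at 179 CPM against 0.474, with 22.8 and 28.3. GPAT2, an acyltransferase, stood at 120.1 CPM against 0.474 and PDE1C, a cyclic nucleotide phosphodiesterase, at 82.7 against 0.19. In these 4 the MYC-labelled library was below both controls and the miR-105 library above both. FAM111B, a trypsin-like protease, was low in 3 libraries, at 108 CPM with miR-105 and 0.474, 0.649 and 2.17 in the others.

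Downwards, the 12 genes were ADH1B, ACSS1, FGFR3, ALDH3A1, FBN2, FKBP10, PDPN, CHI3L1, FAT2, SLC12A7, COL16A1 and C1S. ADH1B, an alcohol dehydrogenase, had 0 reads with miR-105, 168 CPM in the MYC-labelled library, 0.108 with vector and 0 with GFP, at least 357-fold higher. ACSS1, mitochondrial acetyl-CoA synthetase, had 0 reads against 136 CPM, with 6.81 and 4.84 in the controls. ALDH3A1, an aldehyde dehydrogenase, had 1 read (0.157 CPM) against 135 CPM, with 6.38 and 3.97. FAT2, an atypical cadherin, stood at 1.1 CPM against 196 and SLC12A7, a potassium chloride cotransporter, had 0 reads against 52.7 CPM and 0 in both controls. All 12 were low in the controls, and the MYC-labelled library stood far above them. For ACSS1 and ALDH3A1 the miR-105 library also lay below both controls, so that the controls lay between.

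By difference in CPM, cytoskeleton and chaperone genes led with miR-105. TUBA1B, an alpha-tubulin, stood at 5201 CPM with miR-105, 266 in the MYC-labelled library, 320.0 with vector and 319 with GFP, and its neighbour TUBA1C at 4396, 283, 326 and 309. Alpha-tubulin genes are near-identical, and reads may have been shared between them. HSP90AA1, an HSP90 chaperone, stood at 3889 CPM against 531, with 1039 and 1072, and HSPA8, the constitutive HSC70, at 5169 against 1807, with 1818 and 1730.4. ANXA2, annexin A2, stood at 3326 against 603 CPM. KRT81 stood at 3182 against 411 CPM, with 5222 and 3749 in the controls. FTH1, ferritin heavy chain, was lower with miR-105 at 1313 against 4629 CPM, with 4931 and 3650.2 in the controls.

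Mitotic promoters often hold a cell cycle genes homology region beside CCAAT boxes, S-phase promoters E2F sites, and inflammatory promoters NF-kB or interferon response sites. RefSeq windows of 300 bases, from 250 before to 50 after the start, were matched for 9674 of the 12484 genes. The cell cycle genes homology region (CHR), written TTTGAA or TTCGAA and read on both strands, was in 46 of 61 promoters of the mitosis lists (75.4%), against 11.2% of genes compared and 16.6% of all 27305 promoters. It was in 15.7% of promoters of genes at least 2-fold higher with miR-105, 204 of 1851 promoters of lower genes and 32.0% of genes at least 10-fold higher. E2F words, written TTTGGCGC, TTTCCCGC, TTTGGCGG or TTTCGCGC on both strands, were in 31 of 68 promoters of the S-phase lists (45.6%), 5.49% of genes compared, 7.36% of higher and 3.57% of lower genes, and 3.43% of all promoters. The CCAAT box, searched after the first results were seen, was in 73.8% of the mitosis promoters and 36.6% of genes compared. The list members were chosen for their function, so these shares describe the lists and are no test of the difference.

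The E-box of MYC and MAX, CACGTG, did not separate the directions. It was in 16 of 44 promoters of the MYC-activated list (36.4%), 10.0% of genes compared and 7.43% of all promoters, and in 10.7% of the genes higher with miR-105, 8.70% of those lower and 618 of 6015 within 2-fold. On the other side, the NF-kB word, GGG, any 2 bases and TTTCC on either strand, was in 12 of 44 promoters of the innate defence and NF-kB lists (27.3%), 2.11% of genes compared and 1.92% of all promoters, with 1.83% of higher and 2.81% of lower genes. The interferon response word, TTTC, any 2 bases and TTTC on either strand, was in 16 of 24 promoters of the interferon-stimulated list (66.7%), 2.86% of genes compared and 3.65% of all promoters, with 1.88% of higher and 3.62% of lower genes. A match is a description of these letters and says nothing of a bound factor.

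The following promoters, chosen after their values were seen, show these elements in 1 gene each of the mitotic, NF-kB and MHC class I lists. They are given 5′ to 3′ on the gene's strand from RefSeq on GRCh38.p14, with the matched words in capitals. Of 61 promoters of the mitosis lists, 6 (9.84%) held both a CHR and an E2F word, as that of CDK1 does. CDK1, the mitotic kinase, at chr10:60778081-60778380 on the plus strand, holds a CHR and a CCAAT box close together and an E2F word near the start, and its log2 difference was 4.41. BIRC3, an NF-kB-induced inhibitor of apoptosis, at chr11:102317234-102317533 on the plus strand, holds an NF-kB word, and its log2 difference was -4.94. TAP1, the peptide transporter of class I presentation, at chr6:32853655-32853954 on the minus strand, holds interferon response words that overlap each other and an NF-kB word, and its log2 difference was -2.28.
CDK1 promoter: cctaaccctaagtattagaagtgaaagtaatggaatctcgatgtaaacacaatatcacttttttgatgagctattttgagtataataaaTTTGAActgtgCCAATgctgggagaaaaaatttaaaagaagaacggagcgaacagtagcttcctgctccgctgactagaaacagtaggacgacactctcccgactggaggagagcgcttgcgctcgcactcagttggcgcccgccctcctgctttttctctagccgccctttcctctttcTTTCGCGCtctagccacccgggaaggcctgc
BIRC3 promoter: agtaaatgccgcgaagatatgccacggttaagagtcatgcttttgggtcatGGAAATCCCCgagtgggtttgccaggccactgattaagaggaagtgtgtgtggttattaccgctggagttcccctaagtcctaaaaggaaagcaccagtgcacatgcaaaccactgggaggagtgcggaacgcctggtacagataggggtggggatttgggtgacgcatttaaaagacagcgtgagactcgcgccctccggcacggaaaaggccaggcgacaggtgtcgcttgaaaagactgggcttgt
TAP1 promoter: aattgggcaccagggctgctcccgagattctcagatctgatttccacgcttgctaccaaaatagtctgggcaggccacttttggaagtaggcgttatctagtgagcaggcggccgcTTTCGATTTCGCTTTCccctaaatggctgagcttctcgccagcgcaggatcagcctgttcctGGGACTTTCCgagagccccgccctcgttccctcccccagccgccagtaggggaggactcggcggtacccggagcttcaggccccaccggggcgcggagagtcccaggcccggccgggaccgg

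Seed matches of miR-105 did not set genes apart in this comparison. Among 12083 compared genes with an annotated 3' UTR, the word GCATTTG was in 14.4%, in 14.5% of genes at least 2-fold higher with miR-105, 12.5% of genes lower and 14.9% of genes within 2-fold. Per 100 kb of 3' UTR there were 10.5 such words in higher genes, 9.52 in lower genes and 10.7 within 2-fold. The 501 genes with the longer match GCATTTGA had a median log2 difference of 0.13, the 1235 with the shorter match alone 0.08, and the 10347 with neither 0.05. Among 3' UTRs of at least 1000 bases the medians were 0.09 with a match and 0.12 without. MXI1, with 1 longer and 1 shorter match, was thus lower with miR-105, TJP1, with 2 longer and 2 shorter ones, was higher, and FBN2, with 1 longer match in the following line, had 0 reads with miR-105 but was also near 0 in the controls. The FBN2 stretch lies at chr5:128259386-128259415 on the minus strand of GRCh38.
FBN2, longer site: gccagtctgcagaaGCATTTGAaaagtcaa

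Differences were also uneven along the chromosomes. This was examined after the first results were seen, by taking consecutive compared genes in blocks of 60 in the RefSeq order, with the remainder in the last block of a chromosome, 186 blocks and 11783 genes in all. For GFP against vector the block medians ran from -0.29 to 0.35. For miR-105 against the MYC-labelled library they ran from -1.05 to 0.95, and 160 of the 186 blocks lay within 0.4 of 0. Single genes also spread more widely here, with quartiles of -0.76 and 0.76 against -0.26 and 0.36 between the controls. The 2 ranges of block medians are therefore not a like comparison. The lowest block lay on chromosome 1 between GPR37L1 and SLC30A1, with 30 genes at least 2-fold lower with miR-105 and 6 higher. There the MYC-labelled library stood above the vector and GFP libraries by medians of 1.11 and 0.82, while miR-105 lay below them by -0.29 and -0.31. All 8 consecutive blocks of that arm, from CHD1L to PGBD2, had medians between -0.27 and -1.05, and in each the MYC-labelled library stood above vector, by medians of 0.40 to 1.12. On chromosome 5 the block from PCDHA10 to SPINK6 had a median of -1.03, with 36 genes lower and 7 higher, and it holds the protocadherin clusters, whose genes share exons and therefore reads.

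The highest block lay on chromosome 8 between TNFRSF10D and ADAM9, with a median of 0.95, 29 genes higher with miR-105 and 3 lower. There the MYC-labelled library was below vector and GFP by -0.48 and -0.50, and miR-105 above them by 0.50 and 0.29. Next came the block from ZNF800 to MRPS33 on chromosome 7, at 0.74, and the following block on chromosome 8, from ADAM32 to MCMDC2, at 0.68. By whole chromosomes the medians were highest for chromosomes 8 (0.42) and 7 (0.36) and lowest for chromosome 1 (-0.14). Genes of a block are not independent replicates, and the copy number of these regions was not measured here.

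**Figure D5:**
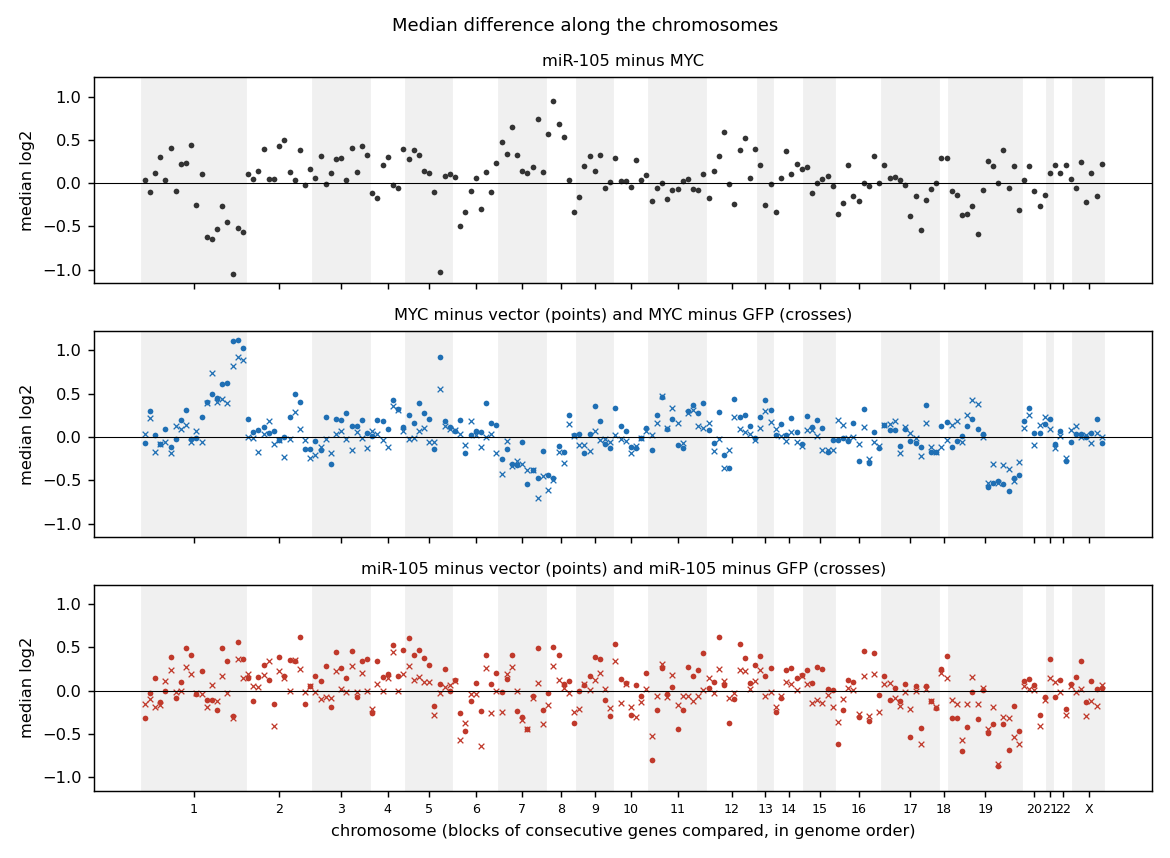
Median log2 difference, on log2(CPM + 0.5), of each block of consecutive compared genes along the chromosomes, 1 library each: miR-105 minus MYC-labelled (top), MYC-labelled minus each control (middle) and miR-105 minus each control (bottom), with points for vector and crosses for GFP. The low blocks at the end of chromosome 1 and on chromosome 5 in the top panel are high in the middle panel, and the highest block, at 0.95 on chromosome 8, is low there.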

How the data were processed

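Poly(A) RNA of 4 MCF10A populations, 1 library each, had been sequenced. Per the submitters' processing notes, TopHat2, edgeR and the genome build hg19 were used, without versions. No source used here names the counter, annotation or strand setting. The deposited table held 1 depth-adjusted signal value per gene and library, not whole counts. These values had the form of edgeR pseudo-counts, and inverting them at a dispersion of 0.0553 gave whole reads for 100% of 18859 values in each library, with a largest relative residual of 4.41e-06 against a tolerance of 1e-05. On simulated counts the inversion returned 100% of reads. Dropping 19 repeated lines left 18840 genes.

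CPM used totals of 9138429 (vector), 14025115 (GFP), 6859698 (miR-105) and 9795159 (MYC-labelled) reads and TMM factors of 1.012, 0.9871, 0.9295 and 1.077 (edgeR 4.0.16, R 4.3.3). Genes averaging 1 CPM or more were compared on log2(CPM + 0.5) and marked at 2-fold. No test was a main result. Intervals are exact conditional binomial (Clopper-Pearson) 95% intervals, reads are not independent molecules, and they cover counting error only. Beyond these, edgeR's quasi-likelihood test and DESeq2 1.42.0 were run with both controls as replicates of 1 group, which leaves 1 residual degree of freedom.

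Members and the 43 gene lists were chosen with earlier results of these data known, and so was the rule for named genes: the MYC network with TJP1, the 12 largest log2 and 8 largest CPM differences each way, the 3 highest and 3 lowest members of each list described with those against its median, members with 0 reads against at least 100, and the 9p21 genes. Not every gene so chosen is named. The CDK1, BIRC3 and TAP1 promoters, the epithelial and other cell markers, the CCAAT box and the chromosome blocks fall outside that rule. RefSeq sequences are of GRCh38.p14 and seed sites of GENCODE 29 on GRCh38, not hg19.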

Additional observations from a re-analysis of the deposited data

How the results depend on the processing

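With 1 library per construct, nothing separates culture, clone, batch or depth from construct, and leaving out a library removes a side. No paired analysis was possible because each construct had 1 library and the labels give no replicate numbers. Against 2371 genes higher and 2478 lower with miR-105, DESeq2 with both controls as replicates of 1 group marked 1372 and 1298 at an adjusted p under 0.05, and edgeR's quasi-likelihood test 2037 and 2029. With a lower counting bound of at least 2-fold the counts were 1804 and 1702. The other scalings, filters and pseudocounts gave 1837 to 2473 higher and 1785 to 3004 lower. The 510 genes marked between GFP and vector became 278 with a pseudocount of 2 CPM. Without the expression filter, which adds members of few reads, 5 list medians changed sign, to -0.44 for Fibroblast markers, -0.20 for Immune markers, -0.59 for Adipocyte markers, -0.65 for Melanocyte and neural markers and 0.12 for Mesenchymal regulators and markers. That setting moved the medians of the squamous list to 0.40 and of the histone list to -1.09, and a mean of at least 5 CPM moved that of the chemokine list to -2.97. Of 1770 values of 295 named genes under other settings, 33 lost and 11 gained the 2-fold mark. For named genes at least 2-fold apart, 0 values changed sign. Sign changes of named genes within 2-fold were not counted. The miR-105 library was the shallowest, so 0 reads there allow up to 0.471 CPM, against 0.284 CPM in the MYC-labelled library.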
